A study of Mus musculus with 90 samples.

Results

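The genes described here are 48 that license replication origins, unwind DNA and copy it at the fork. They were taken by symbol from a fixed list, which was chosen with earlier results of these data known. All 48 were among the 24422 genes of the count table. All 48 passed the filter on low genes, which 16511 genes passed with 1 CPM (counts per 1000000 gene counts) or more in 5 or more of 78 kept libraries. Levels are compared between genes without division by length, since each transcript is read from its 5′ end only.

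Oocytes at MII and embryos at the 2c and 8c stages of CD-1 mice were sequenced one by one at the 5′ ends of polyadenylated transcripts, to ask what maternal Plag1, a zinc finger transcription factor, does to early gene expression. In the WT groups, MII oocytes were collected without mating from superovulated, sexually mature WT females, and 2c and 8c embryos came from such females mated with WT males and were cultured from the zygote. In the Plag1 knockout groups the females were Plag1 knockout, so that oocytes had no WT allele and the 2c and 8c embryos carried 1 WT Plag1 allele from their WT fathers. MII oocytes were picked 21 to 23 h after hCG, and embryos at 45 to 47 h (2c) and 71 to 73 h (8c) after fertilisation. The kept libraries were 16 WT and 14 Plag1 knockout MII oocytes, 11 and 11 2c embryos, and 15 and 11 8c embryos. The donor females are not given in the labels, so embryos may share a mother and p-values measure only the spread between single oocytes or embryos.

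Replication starts from origins bound by the origin recognition complex, onto which Cdc6 and Cdt1 load the ring-shaped MCM2-7 helicase, while geminin (Gmnn) binds Cdt1 and keeps an origin from being licensed again. Kinases and the proteins Cdc45, GINS, Mcm10 and Topbp1 then turn the loaded ring into a moving helicase, and primase, the polymerases delta and epsilon, the clamp Pcna, the single-strand binding protein RPA and the enzymes that join lagging-strand fragments do the copying. An MII oocyte is arrested in meiosis and does not replicate DNA, whereas cleavage embryos alternate DNA synthesis and mitosis with little growth in between, on transcripts and proteins that are first maternal and then their own.

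Kept libraries held from 92475 to 2502421 gene counts, with group medians from 148473 in WT 2c to 649899 in Plag1 knockout MII libraries. Every kept library correlated best with its own stage, but 5 of the 22 2c libraries and 9 of the 30 MII libraries were closest to the other genotype's mean. Plag1 itself had counts in 16 of 16 WT MII oocytes (median 24.3 CPM) and in 3 of 14 Plag1 knockout oocytes. At 2c it went against the label, with counts in 1 of 11 WT and 9 of 11 Plag1 knockout embryos (log2 fold change 5.59 ± 0.94 SE, edgeR adjusted p = 0.000127), so those embryos are called labelled Plag1 knockout below. These embryos carry a WT paternal allele, and 5′ counts do not show whether a transcript is intact. Oocyte markers took from 0.547% to 2.23% of gene counts in WT MII oocytes and at most 0.0265% in WT 8c embryos. The 8 cumulus cell markers together took at most 0.0128% in any library, and the 2c markers Tcstv1 and Tcstv3 had no count in any kept library.

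Many replication genes are known targets of E2F transcription factors, which bind DNA at letters of the kind searched here. Of the 48 genes, 40 had a promoter in the RefSeq table (build GRCm38.p6), which gives 250 bases before and 50 after each annotated start. Any of the 4 spellings TTTGGCGC, TTTCCCGC, TTTGCCGC and TTTCGCGC, on either strand, occurred in 16 of the 40 (40%), against 2.6% of all 27025 genes with a promoter in the table and 4.19% of those tested here. In a list of other replication genes not counted among the 48, 6 of 26 promoters held one. The 16 genes were Orc1, Orc3, Cdc6, Cdt1, Mcm3, Mcm5, Mcm6, Mcm7, Gins3, Topbp1, Pold1, Pold3, Pole2, Pole4, Rfc3 and Lig1, so 4 of the 5 MCM2-7 promoters in the table carried the letters and none of the 3 promoters of nucleotide supply genes did. A CCAAT box, also searched on both strands, occurred in 22 of the 40 (55%) and in 41.1% of all genes.

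The promoters of the 4 genes called between the genotypes at 2c or 8c are shown with those of Mcm5 and Mcm6, which hold the most closely packed matches. Letters in capitals are E2F-type matches, and the rest is in lower case. In Mcm5 and Mcm6 a match on the gene's strand overlaps one on the other strand, so that 12 letters in a row are in capitals. Rpa2 and Orc6 hold none of the 4 spellings, Topbp1 and Pold1 hold 1 each, on the strand opposite to the gene. Each is written 5′ to 3′ on the strand of its gene, in GRCm38.p6.
Rpa2, chr4:132768110-132768409, plus strand: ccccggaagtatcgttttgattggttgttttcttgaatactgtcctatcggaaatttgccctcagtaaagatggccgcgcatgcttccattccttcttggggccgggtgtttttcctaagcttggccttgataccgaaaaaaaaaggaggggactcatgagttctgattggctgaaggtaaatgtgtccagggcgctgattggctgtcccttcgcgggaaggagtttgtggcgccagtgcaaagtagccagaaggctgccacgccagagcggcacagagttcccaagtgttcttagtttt
Orc6, chr8:85299382-85299681, plus strand: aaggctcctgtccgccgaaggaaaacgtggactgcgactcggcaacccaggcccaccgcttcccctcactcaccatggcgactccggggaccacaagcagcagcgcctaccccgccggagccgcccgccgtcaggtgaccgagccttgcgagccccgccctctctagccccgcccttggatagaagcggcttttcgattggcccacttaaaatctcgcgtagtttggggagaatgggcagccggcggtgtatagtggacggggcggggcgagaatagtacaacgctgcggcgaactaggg
Topbp1, chr9:103305077-103305376, plus strand: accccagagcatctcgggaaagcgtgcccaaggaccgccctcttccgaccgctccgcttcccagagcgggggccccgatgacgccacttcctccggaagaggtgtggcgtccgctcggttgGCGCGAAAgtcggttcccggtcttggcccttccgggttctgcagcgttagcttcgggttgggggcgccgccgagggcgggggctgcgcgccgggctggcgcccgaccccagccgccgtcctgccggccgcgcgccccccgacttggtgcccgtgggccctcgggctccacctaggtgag
Pold1, chr7:44548766-44549065, minus strand: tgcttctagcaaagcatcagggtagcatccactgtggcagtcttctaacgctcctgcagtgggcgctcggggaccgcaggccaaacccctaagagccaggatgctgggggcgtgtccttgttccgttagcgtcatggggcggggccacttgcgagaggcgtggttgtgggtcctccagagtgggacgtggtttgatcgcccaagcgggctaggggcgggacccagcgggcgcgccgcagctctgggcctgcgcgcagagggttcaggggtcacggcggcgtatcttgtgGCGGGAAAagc
Mcm5, chr8:75109259-75109558, plus strand: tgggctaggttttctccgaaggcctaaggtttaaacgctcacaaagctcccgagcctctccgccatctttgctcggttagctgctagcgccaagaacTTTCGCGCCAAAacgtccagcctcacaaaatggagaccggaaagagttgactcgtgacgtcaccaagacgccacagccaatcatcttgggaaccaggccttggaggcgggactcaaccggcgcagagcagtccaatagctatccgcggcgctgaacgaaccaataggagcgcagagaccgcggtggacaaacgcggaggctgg
Mcm6, chr1:128359656-128359955, minus strand: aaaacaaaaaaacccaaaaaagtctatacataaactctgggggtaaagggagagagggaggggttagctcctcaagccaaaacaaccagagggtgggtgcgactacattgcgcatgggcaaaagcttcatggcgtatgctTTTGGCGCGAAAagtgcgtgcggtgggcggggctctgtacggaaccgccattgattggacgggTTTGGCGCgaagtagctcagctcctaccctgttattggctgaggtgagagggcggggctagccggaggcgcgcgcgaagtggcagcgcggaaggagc

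Across these promoters the 22 matches lay on both sides of the annotated start, 15 of them within 100 bases of it. A match describes letters and is not shown to be a bound site.

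**Figure D1:**
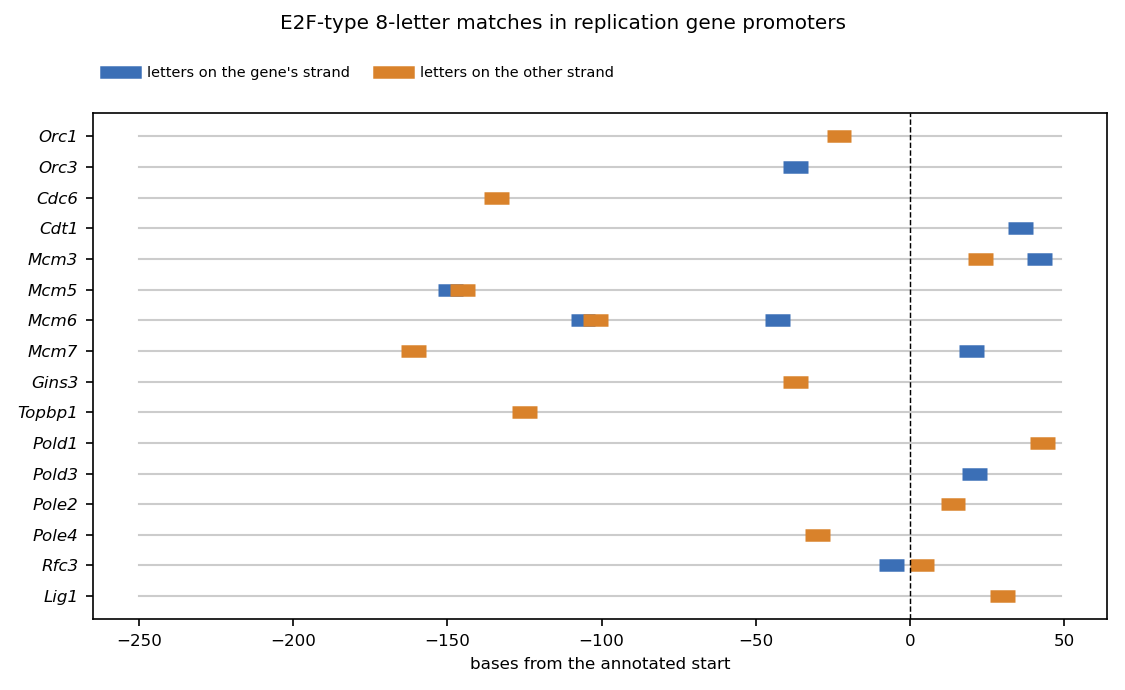
Position of each E2F-type 8-letter match in bases from the annotated start (dashed line) for the 16 genes that hold one, with the searched window in grey, matches on the gene's strand in blue and on the other strand in orange. Of the 22 matches, 15 begin within 100 bases of the start.

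Taken as one sum, the 48 genes made up under 1% of the transcripts counted in every library. Their share of gene counts ran from 0.257% to 0.533% in WT MII oocytes (median 0.421%), from 0.367% to 0.616% in WT 2c (median 0.488%) and from 0.316% to 0.429% in WT 8c embryos (median 0.373%). In the Plag1 knockout groups the medians were 0.41% at MII, 0.349% at 2c and 0.391% at 8c. The 2c groups overlapped, with 0.256% to 0.489% in the embryos labelled Plag1 knockout. Against the spike-in RNA added to each library in equal amount, the sum behaved differently, since the median was 197 counts per 1000 spike-in counts in WT MII oocytes, 74.8 at 2c and 191 at 8c. The Plag1 knockout medians on this scale were 291, 58.5 and 137. On this scale the 2c median was the lowest of the 3 stages in both genotypes, as gene counts per spike-in count were.

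**Figure D2:**
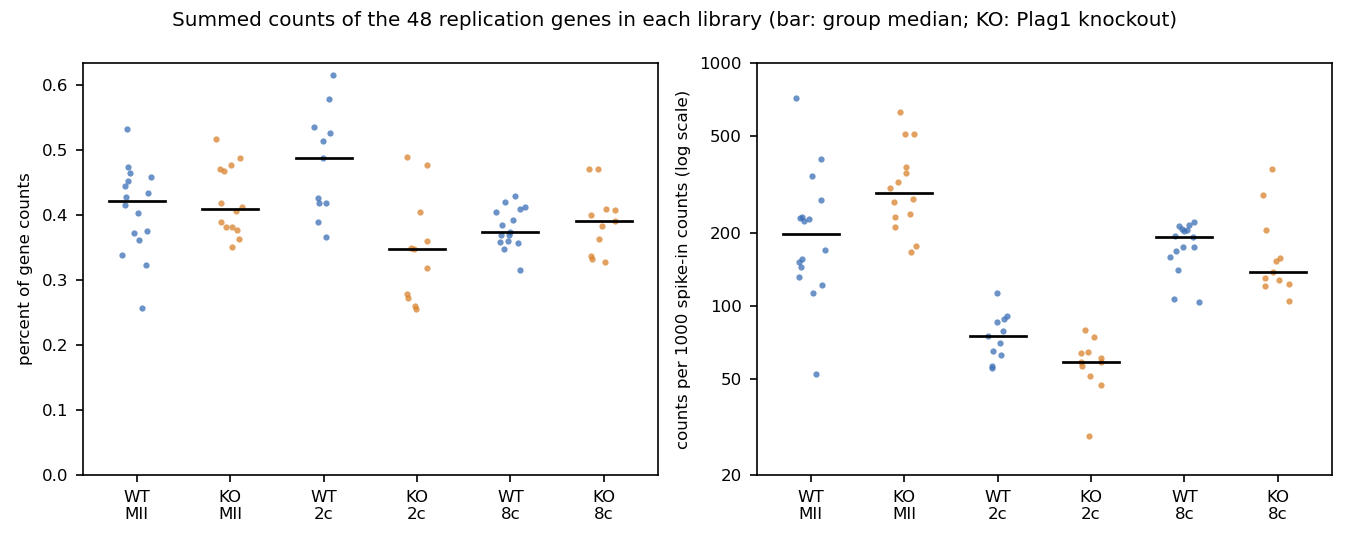
Summed counts of the 48 genes in each kept library as a percent of gene counts (left) and per 1000 spike-in counts on a log axis (right), with bars at the group medians, WT in blue and Plag1 knockout in orange. The share of counts stayed between 0.256% and 0.616%, whereas the median sum per spike-in was lowest at 2c in both genotypes.

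The stage comparisons ask how the level of each replication transcript differs from oocyte to embryo. Between stages, library size was set by the spike-in total, so that a fold change compares polyadenylated transcripts per oocyte or embryo. Tail length, synthesis and decay were not measured and cannot be told apart here. From MII to 2c in WT, 32 of the 48 genes fell (background 51.3% of all tested genes) and 1, Rpa2, rose (background 14.1%). Their median log2 fold change was -1.82, against -1.46 over all tested genes. From 2c to 8c in WT, 28 rose (background 31.9%) and 4 fell, namely Orc1, Gins2, Dbf4 and Pole4 (background 16.2%), with a median of 1.23 against 0.53. These medians did not change when Pold1, which had no count in WT 2c embryos, was set to the bounds that a floor of 3 counts gives.

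Of the 48 genes, 24 fell and then rose in WT, against 15.8% of all tested genes. A further 8 fell without a later change past the threshold (25.6% of all tested genes), and 4 rose at 8c after no called change at 2c (Topbp1, Fen1, Rrm2 and Tyms, 11.6% of all tested genes). In the groups labelled Plag1 knockout 38 fell from MII to 2c (background 50.3%) and none rose in edgeR (background 13.5%), where none had a rise at an unadjusted p under 0.05 and DESeq2 also called none (background 8.01%). From 2c to 8c, 30 rose (background 29.1%) and 1, Dbf4, fell (background 19.5%). Their medians were -2.54 (all tested genes -1.42) and 1.47 (all tested genes 0.30). Within a genotype, both steps share their 2c libraries.

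Gene counts per spike-in count themselves moved between stages, with a mean log2 ratio of 5.59 ± 0.88 (SD, n = 16) in WT MII, 3.98 ± 0.21 (n = 11) in WT 2c and 5.52 ± 0.35 (n = 15) in WT 8c libraries. Plag1 knockout libraries had 6.17 ± 0.57 (n = 14), 4.07 ± 0.35 (n = 11) and 5.37 ± 0.48 (n = 11). With TMM factors, which centre the comparison on gene counts, WT counts became 13 higher (background 27.5%) and 15 lower (background 23.1%) at 2c against MII. Under the same factors 17 were higher (background 21%) and 10 lower (background 28.9%) at 8c against 2c. Under TMM factors 4 of the 32 WT falls to 2c had a log2 fold change above 0, for Cdc6, Pole2, Mcm3 and Prim2, and none past the threshold. The cells of an embryo were not counted, so more cells and more RNA per cell cannot be told apart.

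**Figure D3:**
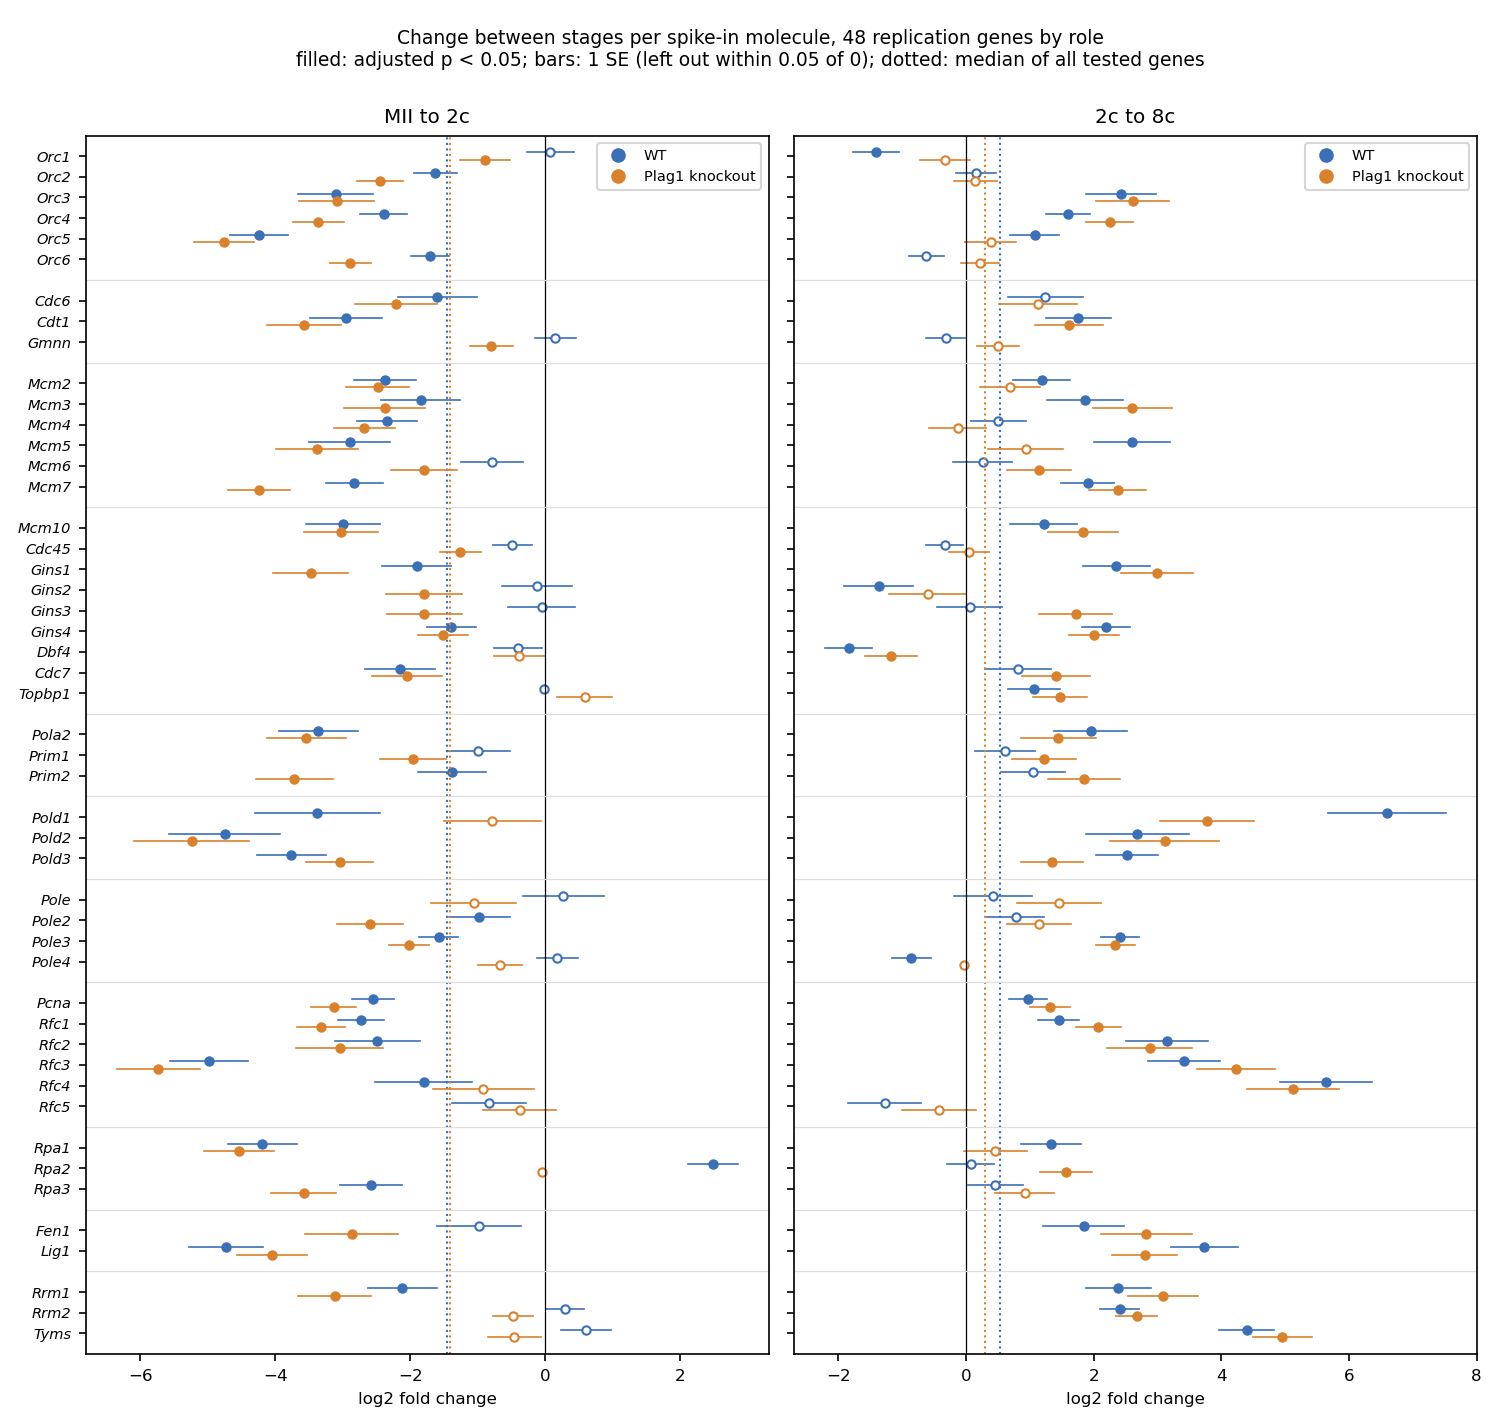
Log2 fold change of each of the 48 genes per spike-in count for 2c against MII (left) and 8c against 2c (right), genes grouped by role from origin recognition at the top to nucleotide supply at the bottom, WT in blue and Plag1 knockout in orange, with bars of 1 SE (left out within 0.05 of 0) and filled points past an adjusted p of 0.05. Most points lie left of 0 on the left, with WT Rpa2 the only filled point to the right, and most lie right of 0 on the right. The WT values of Pold1 rest on a 2c group with no count.

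Origin recognition genes, which mark where replication can start, included the most abundant of the 48 genes at MII. Orc6, the least tightly bound subunit, had the highest median CPM of the 48 genes in MII oocytes of both genotypes, followed by Orc5. Single WT libraries held from 148 to 952 (median 526) at MII, from 214 to 601 (median 419) at 2c and from 95.5 to 223 CPM (median 145) at 8c. The matching groups labelled Plag1 knockout held from 181 to 700.3 (median 572), from 102 to 469 (median 224) and from 59.1 to 293 CPM (median 137). The WT ranges at MII and 2c overlapped widely, whereas those at 2c and 8c shared only a narrow stretch. Per spike-in Orc6 fell from MII to 2c by 1.71 ± 0.28 on the log2 scale in WT (adjusted p = 2.4e-07) and by 2.89 ± 0.30 under the Plag1 knockout label (adjusted p = 1.35e-13). Orc5, an ATP-binding subunit, dropped further. WT MII oocytes had from 117 to 604 CPM (median 256) of it and WT 2c embryos from 21.2 to 95.7 CPM (median 39.4), and the ranges did not overlap. Its log2 fold change was -4.25 ± 0.43 (adjusted p = 2e-14), while at 8c the range, from 19.3 to 107 CPM (median 44.1), overlapped that at 2c and the rise was 1.08 ± 0.38 (adjusted p = 0.0155). Orc3 showed the largest rise of the complex, with 5.63 CPM as the median in WT 2c and 16.1 CPM in WT 8c embryos (log2 fold change 2.43 ± 0.55, adjusted p = 0.000158). Orc1, the largest subunit, went the other way after 2c. It had its highest WT median at 2c (109 CPM, from 67.5 to 193), above every WT 8c library (from 4.64 to 42.5 CPM), and fell by 1.41 ± 0.36 on the log2 scale from 2c to 8c (adjusted p = 0.000622). Orc2 and Orc4 fell from MII to 2c under both labels, and Orc4 rose again under both.

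The loading factors and their inhibitor differed in level and timing. Gmnn, which blocks relicensing, had the highest median of the 48 genes in WT 2c embryos. Gmnn ran from 65.3 to 499 (median 218) in WT MII oocytes, from 195 to 1047 (median 657) in WT 2c and from 201 to 348 CPM (median 275) in WT 8c embryos. With the Plag1 knockout label it ran from 48.7 to 282 (median 193) at MII, from 87.7 to 917 (median 249) at 2c and from 136 to 361 CPM (median 259.7) at 8c. The widest spread was among 2c embryos of either label. Per spike-in it did not pass the threshold in WT at either step (0.15 ± 0.30, adjusted p = 0.683, then -0.32 ± 0.30, adjusted p = 0.398), whereas with TMM factors the WT step to 2c was 1.37 (adjusted p = 2.29e-05). Under the Plag1 knockout label it fell by 0.80 ± 0.32 from MII to 2c (adjusted p = 0.0224), whereas with TMM factors the same change was 0.98 (adjusted p = 0.00358), so its direction depended on the scale. Cdt1, the partner that geminin holds, was present from the oocyte on. Single WT libraries held from 26.5 to 600.5 (median 138) at MII, from 32.8 to 168 (median 68.3) at 2c and from 56.6 to 388 CPM (median 136) at 8c. The matching groups labelled Plag1 knockout held from 35.7 to 535 (median 159), from 35.3 to 171 (median 89.3) and from 88.7 to 209 CPM (median 131). Single oocytes of both genotypes reached far above any 2c embryo. Per spike-in Cdt1 fell by 2.95 ± 0.53 to 2c (adjusted p = 1.35e-06) and rose by 1.76 ± 0.51 to 8c (adjusted p = 0.00267) in WT, with medians of 6.45, 1.41 and 4.92 counts per 1000 spike-in counts. Cdc6, the ATPase that seats the MCM ring, had its lowest medians at MII. Cdc6 ran from 3.78 to 131 (median 19.3) in WT MII oocytes, from 13 to 148 (median 31.2) in WT 2c and from 16.7 to 169.7 CPM (median 54.1) in WT 8c embryos. With the Plag1 knockout label it ran from 4.23 to 164 (median 33.9) at MII, from 7.97 to 83.2 (median 44.9) at 2c and from 15.8 to 93.6 CPM (median 70.4) at 8c. The ranges of all stages overlapped. It fell by 1.60 ± 0.58 per spike-in to 2c in WT (adjusted p = 0.0131), but with TMM factors the value was 0.48 (adjusted p = 0.356), and without the 2 oocyte libraries with the most gene counts per spike-in count it was -0.32 (adjusted p = 0.561).

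The 6 MCM2-7 genes each encode 1 part of a single ring, and their transcripts were not alike in timing. Per spike-in, 5 of 6 fell from MII to 2c in WT (all but Mcm6, background 51.3%) and 6 of 6 under the Plag1 knockout label (background 50.3%). To 8c, 4 rose again in WT (Mcm2, Mcm3, Mcm5 and Mcm7, background 31.9%). Mcm2 ran from 28.4 to 166 (median 95.9) in WT MII oocytes, from 18.8 to 134 (median 41) at 2c and from 27.8 to 129.9 CPM (median 62) at 8c, and from 37.2 to 169.9 (median 83.7), from 10.9 to 97.4 (median 61.2) and from 4.31 to 116 CPM (median 40.3) in the matching Plag1 knockout groups. Mcm2 thus had its highest medians at MII, with log2 fold changes of -2.38 ± 0.46 and 1.18 ± 0.44 in WT (adjusted p = 5.79e-06 and 0.0217). Mcm3 ran from 0 to 93.3 (median 16.8) in WT MII oocytes, from 0 to 58.3 (median 18.8) at 2c and from 13 to 119.7 CPM (median 41.6) at 8c, and from 1.57 to 96.3 (median 21.1), from 6.69 to 69.3 (median 15.9) and from 15.1 to 164 CPM (median 60.1) in the matching Plag1 knockout groups. It fell to 2c by 1.85 ± 0.59 per spike-in in WT (adjusted p = 0.00448), with 0.092 under TMM factors. It rose by 1.87 ± 0.59 from 2c to 8c in WT (adjusted p = 0.00627), although the ranges overlapped. Mcm4 ran from 28.6 to 252 (median 68.9) in WT MII oocytes, from 4.56 to 127 (median 49.3) at 2c and from 15.4 to 70.1 CPM (median 41.9) at 8c, and from 67.3 to 437 (median 112), from 14.1 to 177 (median 60) and from 19 to 81.2 CPM (median 34.9) in the matching Plag1 knockout groups. Mcm4 had its highest medians at MII in both genotypes and was the member of the ring with no called rise to 8c in either (0.51 ± 0.43, adjusted p = 0.326 in WT). Mcm5 ran from 2.6 to 229 (median 17.3) in WT MII oocytes, from 4.48 to 76.3 (median 21.2) at 2c and from 11.6 to 156 CPM (median 69.6) at 8c, and from 8.5 to 245 (median 62.6), from 8.16 to 93.3 (median 33.8) and from 16.8 to 88.7 CPM (median 38.4) in the matching Plag1 knockout groups. In MII oocytes 1 of 14 knockout values lay below the WT median and 5 of 16 WT values lay below the lowest knockout one, while the ranges overlapped. Its WT fold change was -2.90 ± 0.60 to 2c and 2.60 ± 0.60 to 8c (adjusted p = 2.19e-05 and 0.000182), but within plate B, 1 of the 2 library pools, the step to 2c was 0.031.

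Mcm6 ran from 7.56 to 166 (median 20.5) in WT MII oocytes, from 28.1 to 92 (median 56.3) at 2c and from 16.2 to 60.9 CPM (median 34.3) at 8c, and from 4.25 to 136 (median 19), from 7.97 to 92.4 (median 26.3) and from 10.7 to 91.3 CPM (median 42.2) in the matching Plag1 knockout groups. Mcm6 was the only MCM2-7 gene with its highest WT median CPM at 2c, and neither WT step passed the threshold (-0.79 ± 0.46, adjusted p = 0.119, and 0.26 ± 0.46, adjusted p = 0.672). Mcm7 ran from 0 to 199.7 (median 109) in WT MII oocytes, from 14.1 to 98.9 (median 45.6) at 2c and from 44.3 to 217 CPM (median 78.6) at 8c, and from 77.6 to 229.6 (median 119), from 7.7 to 50.7 (median 20.1) and from 35.2 to 122 CPM (median 67.2) in the matching Plag1 knockout groups. One WT MII library had no Mcm7 count, while every other library of any group did. Mcm7 fell by 2.83 ± 0.42 to 2c in WT (adjusted p = 1.54e-08) and by 4.24 ± 0.46 under the Plag1 knockout label, then rose by 1.91 ± 0.41 (adjusted p = 6.28e-05) and 2.38 ± 0.45 to 8c.

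Among the 9 genes that turn the loaded ring on, 4 fell to 2c in WT (background 51.3%) and 7 under the Plag1 knockout label (background 50.3%). In edgeR the genotype difference at 2c was called different from that at MII for none of the 9 (background 3.31%). At an unadjusted p under 0.05 there were 3 of the 9 (17.7% of all tested genes). DESeq2 called this difference lower for Gins2 (-1.65, adjusted p = 0.0468, with 3.93% of all tested genes called in either direction). Topbp1, a scaffold that brings Cdc45 and GINS to it, had a higher median CPM at each later stage. Single WT libraries held from 11.7 to 60.6 (median 26.6) at MII, from 30.2 to 201 (median 78.8) at 2c and from 42.2 to 155 CPM (median 107) at 8c. The matching groups labelled Plag1 knockout held from 0 to 55.5 (median 23.7), from 30.1 to 231 (median 134) and from 103 to 347 CPM (median 211). WT oocytes and WT 2c embryos overlapped, as did WT 2c and 8c embryos. In WT it did not pass the threshold per spike-in from MII to 2c (-0.025, adjusted p = 0.981) and rose by 1.07 ± 0.41 to 8c (adjusted p = 0.0237). Gins1, a GINS subunit, rose by 2.36 ± 0.52 from 2c (median 17.9 CPM, counts in 10 of 11 embryos) to 8c (median 57.9 CPM) in WT (adjusted p = 9.47e-05), the largest WT rise of this group. Mcm10, which binds the active helicase, had the largest fall, -3.00 ± 0.55 from MII (median 45.7 CPM) to 2c (median 20.8 CPM, counts in 8 of 11 embryos, adjusted p = 1.85e-06). Dbf4, the activating subunit of the kinase Cdc7, fell from 2c to 8c under both labels, by 1.84 ± 0.37 in WT (adjusted p = 2.01e-05). Its WT medians were 33.5, 81.9 and 12.6 CPM, and the highest WT 8c value, 31 CPM, only just exceeded the lowest WT 2c value of 30.2 CPM. The kinase Cdc7 itself fell to 2c in WT (-2.15 ± 0.52, adjusted p = 0.000217) and had no called change from 2c to 8c (0.81 ± 0.52, adjusted p = 0.189). Gins4 fell per spike-in and then rose under both labels, but under TMM factors its step to 2c was 0.16 under the Plag1 knockout label. Gins2 fell from 2c to 8c in WT, and Cdc45 and Gins3 passed the threshold at neither WT step, while each of these fell to 2c under the Plag1 knockout label (for Cdc45 the value under TMM factors was 0.45).

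Fork enzymes held the largest falls of the 48 from MII to 2c in WT, for Rfc3, Pold2 and Lig1. Pold1, the catalytic subunit of polymerase delta, had few counts before 8c. It had counts in 5 of 16 WT MII oocytes (at most 5.28 CPM), in none of 11 WT 2c embryos and in 15 of 15 WT 8c embryos, where it ran from 8.93 to 47.1 CPM (median 37.1). Under the Plag1 knockout label it had counts in 9 of 14 oocytes (at most 4.27 CPM), 4 of 11 2c embryos (at most 16.4 CPM) and 11 of 11 8c embryos, from 3.25 to 63.3 CPM (median 40.9). Its pooled level per spike-in in WT 8c embryos was 41.3-fold a floor of 3 counts over the whole WT 2c group. The accessory subunits Pold2 and Pold3 fell and then rose under both labels. Pold2 fell by 4.75 ± 0.82 to 2c in WT (counts in 6 of 11 embryos, adjusted p = 6.61e-07), and Pold3 medians were 192, 67 and 255 CPM in WT. For polymerase epsilon, the small histone-fold subunit Pole3 fell by 1.58 ± 0.29 to 2c (adjusted p = 1.62e-06) and rose by 2.41 ± 0.30 to 8c (adjusted p = 6.21e-11), where its range, from 132 to 274 CPM (median 211), lay above all WT 2c embryos, from 41.6 to 104 CPM (median 63.2). Its partner Pole4 had the opposite course after 2c, with a WT median of 167 CPM at 2c and 44.3 CPM at 8c (log2 fold change -0.85 ± 0.31, adjusted p = 0.0184). The catalytic Pole and its subunit Pole2 had no called change from 2c to 8c under either label.

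The 3 genes of the polymerase alpha and primase complex differed in WT. Per spike-in, Pola2 and Prim2 fell from MII to 2c in WT (background 51.3%, for Prim2 the value under TMM factors was 0.32). All 3 fell under the Plag1 knockout label (background 50.3%). Pola2, the B subunit of the polymerase alpha complex, fell by 3.37 ± 0.58 to 2c and rose by 1.95 ± 0.57 to 8c in WT (adjusted p = 6.54e-07 and 0.00296), with medians of 40.6, 11.5 and 18.2 CPM. Prim1, the catalytic primase subunit, had no called WT change (adjusted p = 0.053 to 2c and 0.276 to 8c). Among clamp genes, Pcna, the ring that tethers the polymerases, had its highest medians at MII. Pcna ran from 85.3 to 392 (median 230.4) in WT MII oocytes, from 21.8 to 262 (median 106) in WT 2c and from 61.2 to 167 CPM (median 122) in WT 8c embryos. With the Plag1 knockout label it ran from 70 to 300.4 (median 244) at MII, from 26.3 to 201 (median 59.9) at 2c and from 76.3 to 199.5 CPM (median 108) at 8c. The ranges of all 3 WT stages overlapped. It fell by 2.55 ± 0.31 to 2c in WT (adjusted p = 3.91e-11) and regained 0.97 ± 0.30 to 8c (adjusted p = 0.00507). The clamp loader subunits, which form one complex, did not move as one. Rfc4 had counts in 7 of 16 WT MII oocytes and 5 of 11 WT 2c embryos, never above 13.9 CPM, and then ran from 47.1 to 126 CPM (median 78.9) in the 15 WT 8c embryos, a rise per spike-in of 5.64 ± 0.72 (adjusted p = 2.46e-10). Rfc3 fell and then rose instead. Its WT medians were 62.1, 4.32 and 31.5 CPM, with counts in 6 of 11 2c embryos (log2 fold changes -4.99 ± 0.58 and 3.42 ± 0.56, adjusted p = 4.68e-12 and 2.81e-07). Rfc1 and Rfc2 also fell and rose under both labels, whereas Rfc5 passed the threshold at no step, with a WT 8c median of 2.32 CPM. Lig1, the ligase that seals lagging-strand nicks, had a similar course, from a median of 92.4 CPM at MII to 4.48 at 2c and 92.9 at 8c in WT (log2 fold changes -4.74 ± 0.55 and 3.73 ± 0.53, adjusted p = 4.21e-12 and 5.58e-09). Fen1, the flap nuclease, rose from 2c to 8c in WT by 1.84 ± 0.63 (adjusted p = 0.0124), with WT medians of 7.94, 8.96 and 28.6 CPM.

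Of the nucleotide supply genes, Rrm2 and Tyms had the highest medians of all 48 at 8c under both labels. Tyms, thymidylate synthase, ran from 0 to 40.7 CPM (median 12.8) in WT MII oocytes, from 17.3 to 112 CPM (median 77.8) in WT 2c and from 568 to 1208 CPM (median 761) in WT 8c embryos, so the 8c range lay wholly above the others. Its rise from 2c to 8c was 4.40 ± 0.43 in WT (adjusted p = 8.35e-15) and 4.96 ± 0.46 under the Plag1 knockout label (adjusted p = 6.56e-16). Rrm2, the small ribonucleotide reductase subunit, had a higher median CPM at each later stage, with WT medians of 81.8, 305 and 784 CPM and a called rise per spike-in to 8c of 2.41 ± 0.31 (adjusted p = 2.51e-10). Rrm1, the large subunit of the same enzyme, was lower, with WT medians of 18.5, 11.2 and 29 CPM. It fell by 2.12 ± 0.51 to 2c and rose by 2.39 ± 0.52 to 8c (adjusted p = 0.000213 and 6.62e-05). Single-strand binding genes split as well. Rpa1, the large RPA subunit, fell by 4.20 ± 0.51 to 2c in WT (medians 114 and 22.4 CPM, adjusted p = 2.47e-11) and Rpa3 fell too, while Rpa2 rose.

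**Figure D4:**
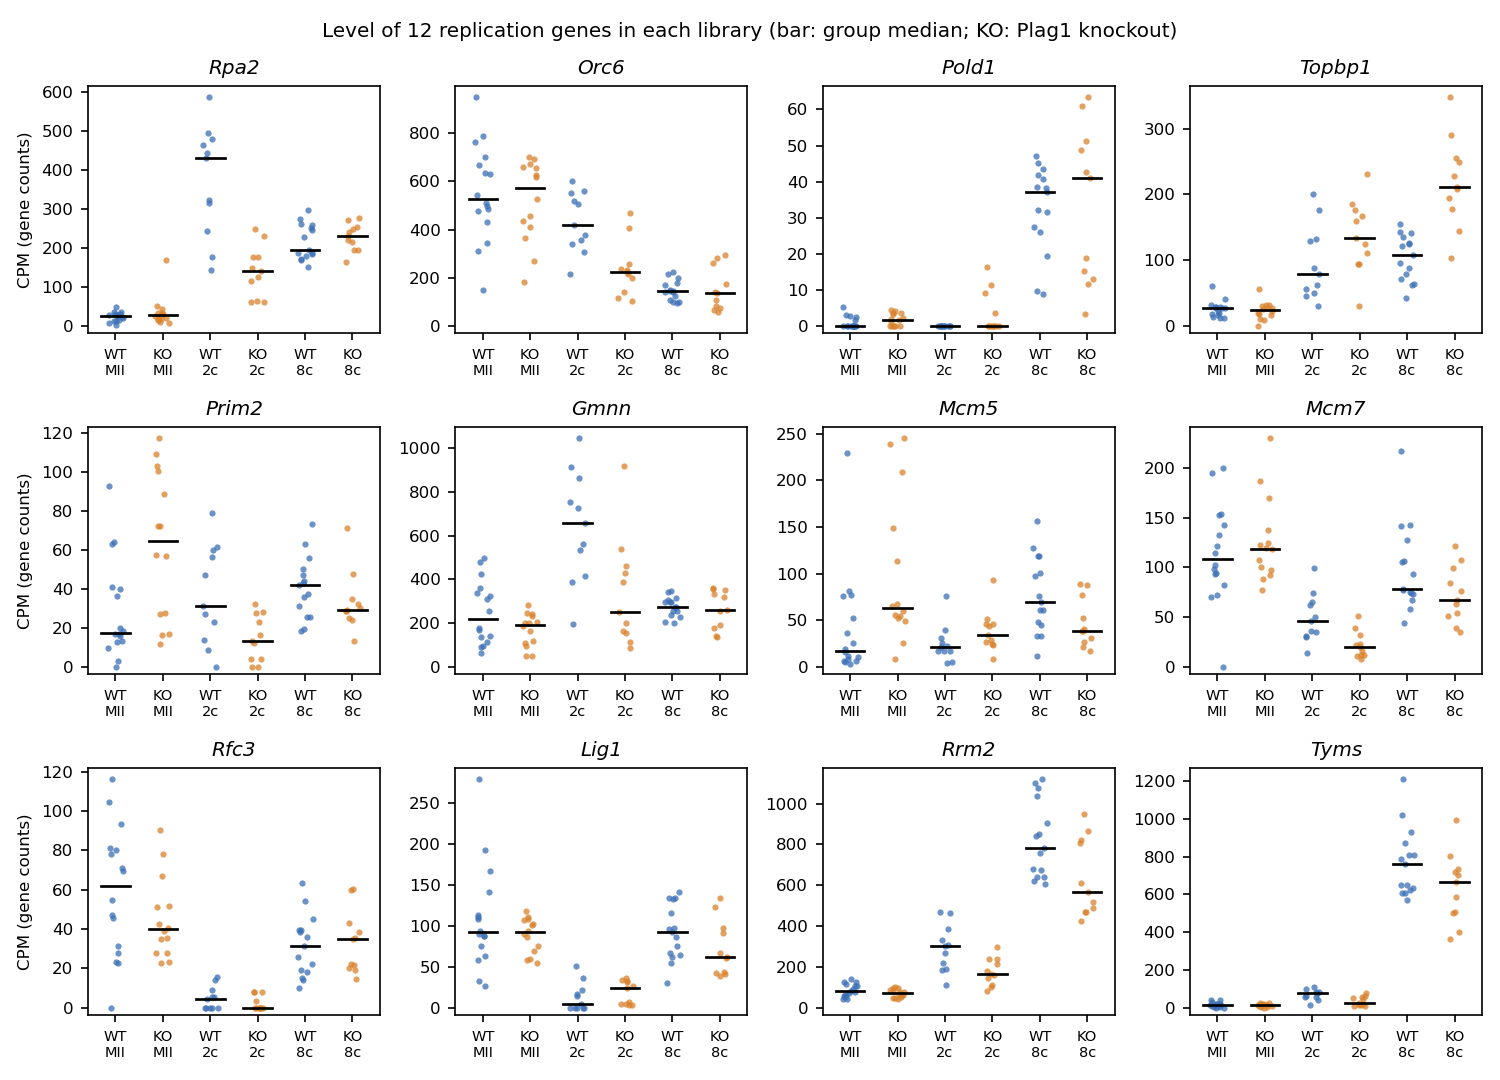
CPM of 12 of the 48 genes in every kept library (points) by group, with bars at the medians, WT in blue and Plag1 knockout (KO) in orange. Rpa2 is high in WT 2c embryos (median 429.9 CPM) and lower in those labelled Plag1 knockout (median 139.7 CPM), Rfc3 and Lig1 are lowest at 2c, and Rrm2 and Tyms are highest at 8c.

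The stage changes can be set beside the E2F-type letters. In WT, the 16 genes with a match had a median log2 fold change of -2.34 at 2c against MII and 1.81 at 8c against 2c, and the 24 with a promoter and no match had -1.96 and 1.20. With Pold1 at its bound the first value became -1.98. Orc1 and Pole4, which fell, both held the letters. The difference between these groups was not tested.

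The genotype comparisons ask what the missing maternal Plag1 changes at each stage. In MII oocytes none of the 48 genes passed the threshold in edgeR (background 0.781%), 9 had an unadjusted p under 0.05 (18.8%, against 10.2% of all tested genes), and DESeq2, the other count test, also called none (background 0.454%). The median log2 fold change was 0.054, with 26 genes above 0 and 22 below. The genes with the largest differences, Mcm5 (1.21 ± 0.38, adjusted p = 0.121) and Prim2 (1.07 ± 0.35, adjusted p = 0.148), had overlapping ranges. Within plate A Mcm5 differed by 0.97, and within plate B by 2.32 (adjusted p = 0.00177). With wells (plate positions) taken as pairs and plate as a term, edgeR called 6 of the 48 higher, among them Mcm5 and Prim2. That fit called 4.9% of all tested genes in either direction, and the labels do not say that a well is a shared source. Approximate 95% intervals were wide, for example from -0.40 to 0.86 for Cdt1 and from -0.37 to 0.66 for Mcm7.

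At 2c, 1 gene was higher (background 2.3%) and 2 were lower (background 2.62%) in embryos labelled Plag1 knockout, shares of the 48 close to the background in both directions. The median of the 48 log2 fold changes was -0.39, against 0.12 over all tested genes and -0.033 over 32 other replication genes. Of the 48, 12 lay above 0, against 8919 of 16511 over all tested genes, and 11 had an unadjusted p under 0.05 (22.9%, against 20.5% of all tested genes). Of the 11, 10 were lower (20.8% of the 48, against 9.07% of all tested genes). Genes of most roles lay below 0, including 7 of 9 for helicase activation, 4 of 4 for polymerase epsilon and 3 of 3 for nucleotide supply. The MCM2-7 genes had 4 of 6 below 0 with a median of -0.018, and lagging strand genes had 1 of 2. Polymerase delta went the other way, with 1 of 3 below 0 and a median of 0.66. With spike-in totals as library sizes none of the 48 was called at 2c, the median was -0.20 against 0.28 over all tested genes, and 29 lay below 0. Among the 32 other replication genes edgeR called none at MII, 2c or 8c (1, 6 and 7 at an unadjusted p under 0.05), and DESeq2, with an adjusted p for 31 of them, called none at MII, 1 higher and 2 lower at 2c and 1 higher at 8c. Beside this, oocyte markers took a median of 0.45% of gene counts in WT 2c embryos and 0.678% in those labelled Plag1 knockout (ranges 0.23% to 0.841% and 0.345% to 1.14%, all 8 detected in both). The 5 2c-stage markers, of which Tcstv1 and Tcstv3 had no count, took medians of 0.0231% and 0.0562%. The part of either list in the result was not tested.

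Rpa2, the middle RPA subunit that is phosphorylated when single-stranded DNA builds up, differed most clearly. Single WT libraries held from 3.18 to 49.1 (median 24.6) at MII, from 144 to 585 (median 429.9) at 2c and from 149.5 to 298 CPM (median 193) at 8c. The matching groups labelled Plag1 knockout held from 6.28 to 168 (median 26.6), from 60 to 248 (median 139.7) and from 163 to 276 CPM (median 231). The gene lies on chromosome 4 at 132324275 to 132334661 (mm9). At 2c all 11 embryos labelled Plag1 knockout lay below the WT median, 8 of 11 WT embryos lay above every one of them, and the ranges still overlapped. The log2 fold change was -1.42 ± 0.32 (adjusted p = 0.00409). Within plates A and B, the pools in which libraries were made, it was -1.12 (adjusted p = 0.542) and -1.89 (adjusted p = 0.00273). With spike-in totals it was -1.35 (adjusted p = 0.0556). The direction was thus the same in both plates and under both scalings, while the call was not. Of the wells used in both plates, most at 2c and all at 8c held the same genotype in each. At these stages agreement between plates thus cannot tell genotype from well. The 2c difference was itself lower than that at MII by 2.05 ± 0.43 (edgeR interaction, adjusted p = 0.00214) and than that at 8c by 1.50 ± 0.43 (adjusted p = 0.0379). In these interaction tests 2 of the 48 genes were called lower against MII (background 1.68%) and 1 against 8c (background 1.13%). At 8c the ranges overlapped nearly in full and the difference was 0.079 (95% interval -0.48 to 0.64), and at MII it was 0.63 ± 0.28 (adjusted p = 0.415). Neither of these passed the threshold. Along each genotype's own course, Rpa2 rose from MII to 2c by 2.48 ± 0.37 in WT (adjusted p = 1.17e-08) with no called change to 8c (0.075, adjusted p = 0.899). Under the Plag1 knockout label it did not pass the threshold to 2c (-0.047, adjusted p = 0.936) and rose by 1.57 ± 0.40 from 2c to 8c (adjusted p = 0.000759).

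Orc6 was the other gene called lower at 2c. On chromosome 8 at 87823531 to 87832178 (mm9), it ran from 214 to 601 CPM (median 419) in WT and from 102 to 469 CPM (median 224) in embryos labelled Plag1 knockout, so that 10 of the latter 11 lay below the WT median. Its log2 fold change was -0.88 ± 0.28 (adjusted p = 0.0444), and -0.76 (adjusted p = 0.646) and -1.05 (adjusted p = 0.0864) within plates A and B. The call was lost when the 9 low libraries with enough counts were kept (-0.51, adjusted p = 0.31) or only the 2c groups were fitted (adjusted p = 0.0738). Pold1 was the gene called higher, from very few counts. The 11 WT 2c embryos held none and 4 of the 11 labelled Plag1 knockout held 9 in all. With the WT group put at a floor of 3 counts, their pooled level was 2.66-fold that of WT. This value leaves out the counting error on the 9. All 4 embryos were from plate B (edgeR adjusted p = 0.0439, DESeq2 adjusted p = 0.151).

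DESeq2 called 6 of the 48 genes lower (background 3.51%) and none higher (background 2.62%) at 2c. Beside Rpa2 and Orc6 these were Gmnn (-0.92, adjusted p = 0.0277), Mcm7 (-1.09, adjusted p = 0.0271), Rrm2 (-0.70, adjusted p = 0.0176) and Tyms (-0.93, adjusted p = 0.0323). In edgeR the same 4 missed the threshold, with -0.93 ± 0.31 (adjusted p = 0.0619), -1.11 ± 0.36 (0.0523), -0.73 ± 0.25 (0.0607) and -0.97 ± 0.36 (0.0921). For each of Gmnn, Mcm7 and Tyms, 10 of 11 embryos labelled Plag1 knockout lay below the WT median, and for Rrm2 11 of 11 did, while all 4 pairs of ranges overlapped.

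Prim2, the large, iron-sulphur primase subunit, differed between stages in its genotype difference. Prim2 ran from 0 to 92.9 (median 17.5) in WT MII oocytes, from 0 to 78.8 (median 31.4) in WT 2c and from 18.2 to 73.4 CPM (median 42) in WT 8c embryos. With the Plag1 knockout label it ran from 11.9 to 117 (median 64.7) at MII, from 0 to 32.3 (median 13.4) at 2c and from 13 to 71 CPM (median 29.2) at 8c. The median was higher in Plag1 knockout than in WT oocytes and lower in embryos labelled Plag1 knockout than in WT at 2c, with overlapping ranges at both stages. Neither stage passed the threshold alone (1.07 ± 0.35, adjusted p = 0.148, and -1.26 ± 0.49, adjusted p = 0.109), whereas the difference between the 2 was -2.33 ± 0.60 (edgeR interaction, adjusted p = 0.0152). Within plates A and B it was -2.36 (adjusted p = 0.242) and -2.78 (adjusted p = 0.037). From MII to 2c it fell by 3.72 ± 0.57 under the Plag1 knockout label (adjusted p = 2.93e-08) and by 1.38 ± 0.50 in WT (adjusted p = 0.0128), where the value was 0.32 under TMM factors and 0.41 within plate B.

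At 8c, 1 of the 48 genes was higher (background 1.21%) and none was lower in edgeR (background 0.527%) in Plag1 knockout embryos. The median log2 fold change was 0.013, 40 of the 48 lay within 0.5 of 0, and 3 had an unadjusted p under 0.05 (6.25%, against 14.3% of all tested genes), each of them higher. DESeq2 called the same single gene higher (background 1.11%) and none lower (background 0.727%). The gene was Topbp1, on chromosome 9 at 103207657 to 103252757 (mm9). It ran from 42.2 to 155 CPM (median 107) in WT and from 103 to 347 CPM (median 211) in Plag1 knockout 8c embryos, and 9 of 11 of the latter lay above every WT embryo. Its log2 fold change was 1.08 ± 0.29 (adjusted p = 0.0304), and 0.80 (adjusted p = 0.633) and 1.33 (adjusted p = 0.159) within plates A and B. Both plates had the genotypes in the same wells at 8c, so genotype and well cannot be told apart. Keeping the low libraries gave 1.00 (adjusted p = 0.0738). Rfc5 had a larger but less certain difference (1.60 ± 0.54, adjusted p = 0.104) at medians of 2.32 and 4.31 CPM. For the helicase, 95% intervals at 8c ran from -1.13 to 0.19 for Mcm2 and from -1.02 to 0.13 for Mcm7.

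**Figure D5:**
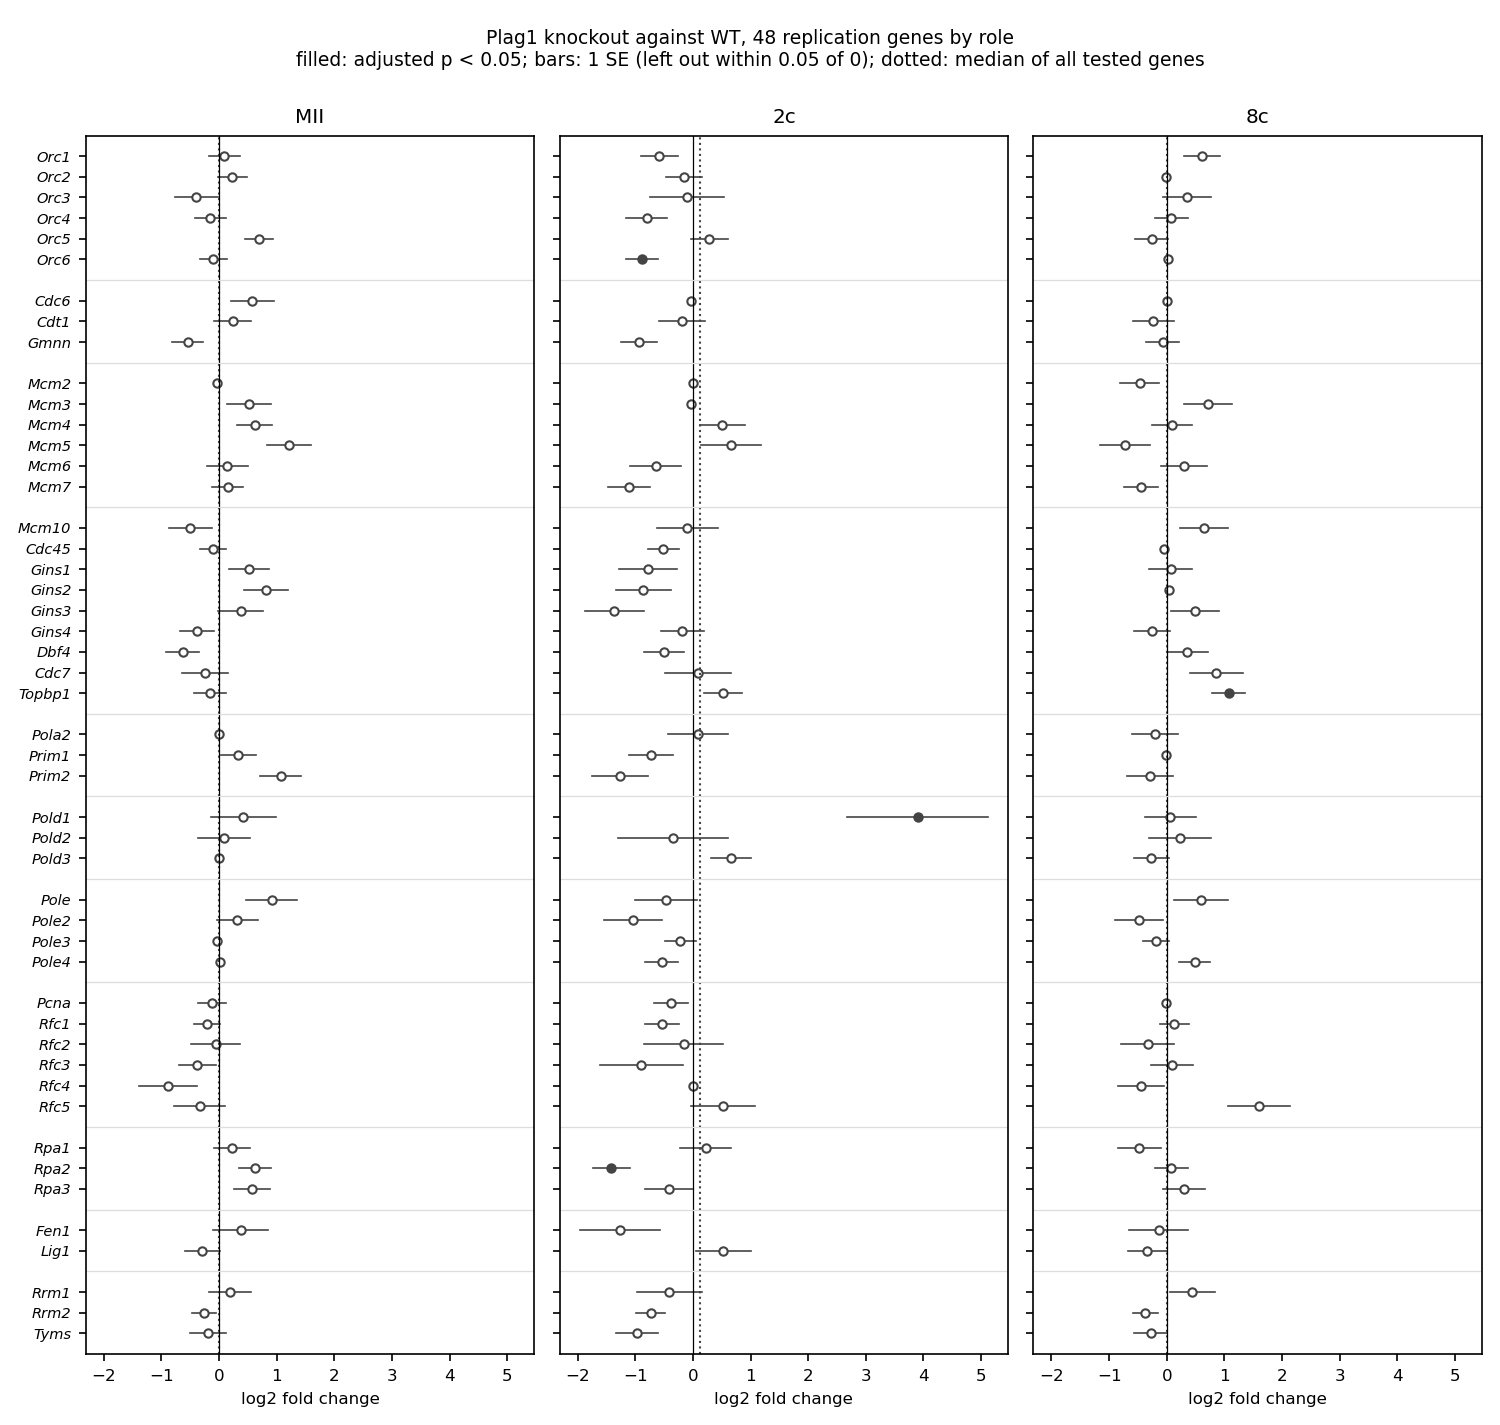
Log2 fold change of Plag1 knockout against WT for each of the 48 genes, grouped by role, at MII, 2c and 8c on one scale, with bars of 1 SE (left out within 0.05 of 0), filled points past an adjusted p of 0.05 and a dotted line at the median of all tested genes. No point is filled at MII, Orc6, Rpa2 and Pold1 are filled at 2c, where 36 of 48 lie below 0, and Topbp1 is filled at 8c. The Pold1 value at 2c rests on a WT group with no count and is not a measured fold.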

How the data were processed

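Single oocytes and embryos were sequenced by a 5′-end (STRT) method with ERCC spike-in RNA in 2 library pools, plates A and B, each holding all stages and genotypes. The authors joined reads by molecular identifier, aligned them with TopHat and counted them per gene with HOMER on mm9. The deposited values are raw counts per gene for 90 libraries, and no column of the count table was without a sample. Here 12 libraries with a median below 1 CPM were left out, and a gene was tested if 5 or more of the other 78 reached 1 CPM.

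Differences came from edgeR 4.0.16 (R 4.3.3) quasi-likelihood tests on all 6 groups in one fit, with Benjamini-Hochberg adjustment over all 16511 genes and a threshold of 0.05. TMM factors were used between genotypes and spike-in totals between stages. Approximate 95% intervals use the normal quantile and the SE that the F statistic implies. Counting depth limits low genes, and floors cover only the counting error of the group without counts. The 48 genes and the other lists were chosen with earlier results of these data known. Genes named in full were Mcm2 to Mcm7, Cdt1, Gmnn, Cdc6, Pcna, those called between genotypes and, of the other roles, the largest WT rise and fall, and Mcm5 and Prim2 at MII, Rfc5 at 8c and DESeq2 calls were named after their values were seen. Alternatives were low libraries kept, no filter, other scaling, DESeq2 1.42.0, plate as a term or alone, and only the groups compared.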

Additional observations from a re-analysis of the deposited data

Results flagged for a closer look

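The genotype difference itself differed between stages, by an edgeR interaction test with Benjamini-Hochberg adjustment, for Rpa2 and Prim2. For Rpa2 the log2 difference at 2c minus that at MII was -2.05 (adjusted p = 0.00214), and minus that at 8c it was -1.50 (adjusted p = 0.0379), with all 11 embryos labelled Plag1 knockout below the WT median at 2c. For Prim2 the 2c against MII value was -2.33 (adjusted p = 0.0152), and 10 of 11 embryos labelled Plag1 knockout lay below the WT median at 2c. Each comparison of stages rests on the same 2c libraries, in which Plag1 counts went against the label. The Rpa2 differences lost their calls within plate A (adjusted p = 0.214 against MII and 0.631 against 8c), and that against 8c also with spike-in scaling (0.152) and with low libraries kept (0.128). That of Prim2 lost its call within plate A (0.242) and with spike-in scaling (0.0605).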

How the results depend on the processing

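Counts below are of the 48 genes called by edgeR unless another test is named, and the cause of each shift was not tested. Between genotypes, the count at MII went from 0 to 3 within plate B (Gmnn, Mcm5 and Pole, with 3.05% of all genes called) and to 6 with the replicate block (wells as pairs, with plate as a term, and 4.9% of all genes called). The 6 were Rpa3, Mcm5 (1.83, adjusted p = 1.85e-13), Pole, Mcm4, Prim2 (1.11, adjusted p = 0.000189) and Orc5. The labels do not say that a well is a shared source. Each pair joins a library of plate A with one of plate B. Of 14 pairs, 12 had a correlation over 0.1 (lowest -0.026), or 13 with plate removed (lowest 0.062). This was short of every pair, so the block is given only as an alternative. In 12 of the 14 pairs the WT library was closest to the knockout library of its own well. For the genotype differences that follow, percentages are of all tested genes called in either direction. At 2c the count went from 3 (4.92%) to 0 with spike-in scaling (1.73%), 0 within plate A (0%) and 6 with DESeq2 (6.13%). At 8c it went from 1 (1.74%) to 0 with low libraries kept (1.71%) and with spike-in scaling (0.642%). It was also 0 within plate A (0.0398%) and within plate B (0.303%). The 2c against MII difference went from 2 genes (3.31%) to 1 with spike-in scaling (1.89%) and 0 within plate A (0.259%). DESeq2 called 4 (3.93%), namely Rpa2, Prim2, Gins2 and Mcm7, all lower. The 2c against 8c difference went from 1 gene (2.3%) to 0 with low libraries kept (2.01%), with spike-in scaling (0.557%) and within plate A (0%). Between stages, TMM scaling moved WT counts from MII to 2c to 13 higher (background 27.5%) and 15 lower (background 23.1%). From 2c to 8c the WT counts became 17 higher (background 21%) and 10 lower (background 28.9%). Under the Plag1 knockout label they became 9 higher (background 29.1%) and 21 lower (background 19.3%) from MII to 2c. From 2c to 8c under that label, 7 were lower (background 30.3%). Within plate A 15 rose (2771 of 15073 tested genes) and 2 fell (1255 of 15073) from 2c to 8c in WT. Under the Plag1 knockout label 15 rose (2556 of 15073) and 0 fell (1750 of 15073) there. Within plate B 4 rose from MII to 2c (2418 of 15161 tested genes) and 2 fell from 2c to 8c (2010 of 15161) in WT. Under the Plag1 knockout label 0 fell from 2c to 8c in plate B (1932 of 15161). With TMM scaling, called falls from MII to 2c turned for Mcm3 (0.092), Cdc6 (0.48), Pole2 (0.38) and Prim2 (0.32) in WT. Under the Plag1 knockout label they turned for Gins4 (0.16), Cdc45 (0.45), Orc1 (0.87, adjusted p = 0.0115) and Gmnn (0.98, adjusted p = 0.00358). Among the genes tracked by name, directions also turned within plate B for Mcm5 (0.031) and Prim2 (0.41) from MII to 2c in WT, and within plate A for Mcm6 (-0.050) from 2c to 8c under the Plag1 knockout label. Leaving out the 2 oocyte libraries of highest gene to spike-in ratio, chosen after seeing the data, kept every such count within 1.5 times. It took the WT falls to 2c from 32 to 29, without Cdc6, Pole2 and Rfc4 (7499 of 16511 tested genes fell). In plate A neither 2c group had a Pold1 count, so no value is given there. Within a plate, groups hold from 4 to 8 libraries.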
